A study of Homo sapiens with 4 samples.

Results

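The RB and E2F family genes were examined in RNA sequencing of MV4-11 cells, an established human line of monocytic acute myeloid leukemia, after knockdown of IRF1. The family was taken as the 10 genes RB1, RBL1, RBL2, E2F1, E2F2, E2F3, E2F4, E2F6, E2F8 and TFDP1, found by their symbols among the 23622 Ensembl identifiers of the deposited table, and all 10 had a row. The control libraries (sh-NC, n = 2) carry the genotype label WT and the treatment label none, while the table headers and the methods name them as a negative control hairpin. The knockdown libraries (sh-IRF1, n = 2) are labelled WT with IRF1 knockdown. Hairpins were delivered by lentivirus and infected cells were selected with puromycin for a few days, and which of the study's hairpins against IRF1 was used in each sh-IRF1 library is not stated in the sources used here. Nothing in the labels says that replicates came from separate infections, so p-values measure the spread between these libraries, which may be technical.

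The RB protein and its relatives p107 and p130, encoded by RB1, RBL1 and RBL2, are called pocket proteins. They bind E2F transcription factors and hold back the genes that a cell needs to enter S phase. Cyclin D and cyclin E kinases phosphorylate the pocket proteins late in G1, which releases E2F and lets the S phase genes be transcribed. E2F1, E2F2 and E2F3 are the activating factors. E2F4 works mainly with p107 and p130 in repression, E2F6 represses without a pocket protein, and E2F7 and E2F8 are atypical repressors that bind DNA without a DP partner. TFDP1 encodes DP1, the partner with which the classical E2F proteins bind DNA. In myeloid leukemia this pathway is a route by which D-type cyclins and their kinases drive proliferation.

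Levels are given as normalized counts, the reads of a gene divided by a size factor for each library. Recovered reads per library ranged from 17635908 to 18695337, of which 20648 to 22010 fell in the 10 family genes, and mitochondrial genes took 3.92% to 4.51%. Differences were tested with limma on log2(normalized count + 1) over 14120 genes (fold changes of sparsely read genes come out too small on it). A gene was called at a Benjamini-Hochberg adjusted p under 0.05. IRF1 itself, the target of the hairpins, stood at 785 and 738 normalized counts with the control hairpin and at 430 and 432 with its own, which is 56.6% of the control mean, and 22.9% of its exonic bases overlap another gene. All 9 myeloid leukemia markers examined were detected, with log2 fold changes from -1.42 to 0.85. Of these, limma called 3 higher and 3 lower, or 66.7%, against 42.2% of all genes tested (20.3% higher and 21.9% lower). The summed level of the 9 markers was 29099 to 29175 normalized counts in sh-NC against 26158 to 26209 in sh-IRF1. No row was found for 8 of 12 markers of lymphoid, erythroid, megakaryocytic and epithelial cells. The other 4 summed to 154 to 198 normalized counts in sh-NC and 276 to 321 in sh-IRF1. CD79A alone, at 50.3 and 43.1 in sh-NC and 190 and 250 in sh-IRF1, made up most of that sum in sh-IRF1, while ITGA2B, called lower, stood at 69.8 and 83.2 against 40.8 and 32.8. The part of these markers in the results was not tested.

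After IRF1 knockdown, transcripts of the activating factors E2F1 and E2F2 rose to 122% and 128% of control, while those of RB1 and of the partner TFDP1 fell to 91.5% and 85.3%. The other 6 family genes were not called. At an adjusted p under 0.05 the family thus had 2 genes higher and 2 lower. These 4 of 10 genes (40.0%) lie near the background, since 42.2% of all genes tested were called (20.3% higher and 21.9% lower). The median log2 fold change of the 10 genes was 0.05, against -0.0019 over all genes tested. No family gene reached a log2 fold change of 0.5 in either direction, a size that 15.8% of all genes tested passed with an adjusted p under 0.05 (8.27% higher and 7.56% lower). The count beyond 0.5 was also 0 with edgeR and with DESeq2, and at an unadjusted p under 0.05 of any size limma counted 5 of the 10 genes, against 49.0% of all genes tested. In bulk samples a change in the share of cells in a cycle phase and a change in RNA per cell cannot be told apart.

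**Figure D1:**
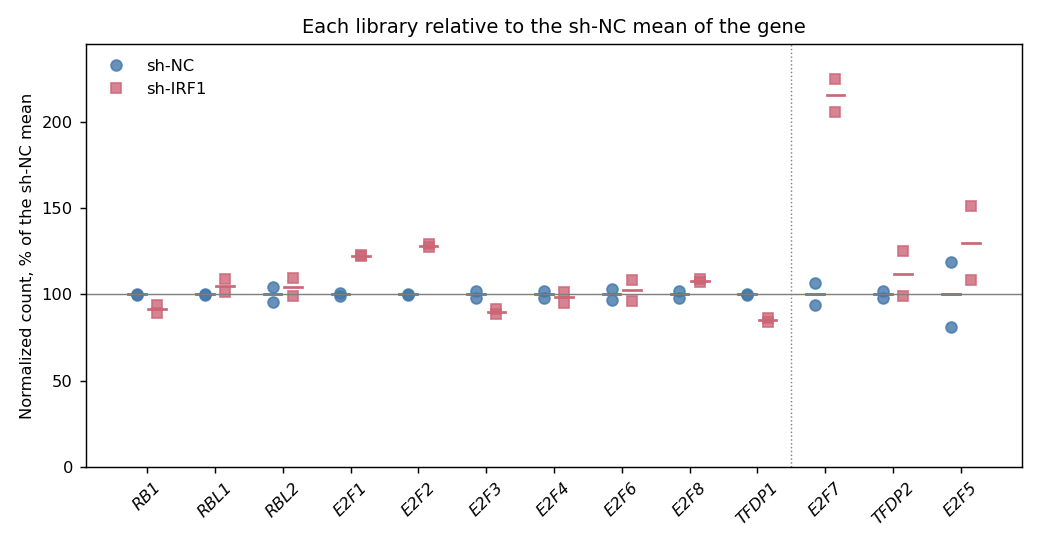
Normalized count of each family gene in each library, as a percentage of the gene's sh-NC mean (vertical axis, linear), with circles for the 2 sh-NC libraries, squares for the 2 sh-IRF1 libraries and a short line for each group mean; the 3 genes right of the dotted line are relatives outside the 10. E2F1 and E2F2 sit at 122% and 128% in sh-IRF1, TFDP1 at 85.3% and E2F7 at 215%, while the groups of RBL2, E2F4 and E2F6 overlap.

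Among the activating factors, E2F1 (ENSG00000101412; chromosome 20, 33675477 to 33686385) encodes the founding E2F protein and had 1568 and 1535 normalized counts in sh-NC and 1894 and 1902 in sh-IRF1. Both knockdown libraries lay above both controls, and the libraries of each group were close together. The log2 fold change was 0.29 (SE 0.0542, limma adjusted p = 1.68e-05), with a 95% interval from 0.18 to 0.40. E2F2 (ENSG00000007968; chromosome 1, 23506438 to 23531233), a close relative with overlapping function, had 838 and 846 normalized counts in sh-NC and 1071 and 1090 in sh-IRF1. It changed by 0.36 on the log2 scale (SE 0.0704, limma adjusted p = 3.79e-05), so that it stood at 128% of the control mean, again with no overlap between the groups. E2F3 (ENSG00000112242; chromosome 6, 20401879 to 20493714), the remaining activator, had 1145 and 1194 normalized counts in sh-NC and 1034 and 1072 in sh-IRF1. Its libraries were lower in sh-IRF1 without overlap, at 90.1% of control, but the log2 fold change of -0.15 was not called (95% interval -0.28 to -0.02, adjusted p = 0.0627 from limma). The E2F3 pseudogene in the table held 1.12% as many reads as E2F3.

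The 3 activators thus did not move together. Within a library the number of E2F1 reads per E2F3 read needs no scaling between libraries, and it was 1.37 and 1.29 in sh-NC and 1.83 and 1.77 in sh-IRF1. E2F2 reads per E2F3 read were 0.732 and 0.709 in sh-NC and 1.04 and 1.02 in sh-IRF1, so that E2F2 passed from fewer reads than E2F3 to slightly more. The ratio of E2F1 to E2F2 changed least, from 1.87 and 1.81 to 1.77 and 1.75. These ratios were chosen after the values of the genes were seen. They are given as descriptions, because the smallest two-sided p of an exact permutation test on groups of 2 is 0.333.

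**Figure D2:**
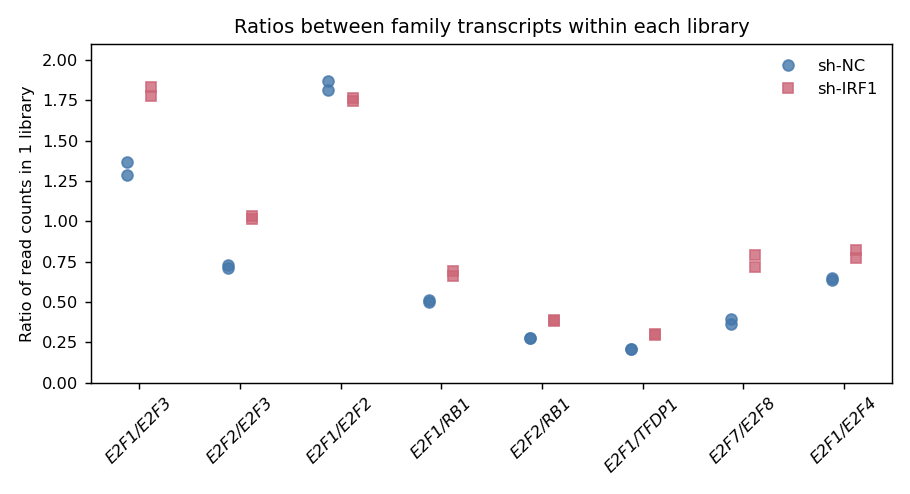
Ratio of read counts between pairs of family genes within each library (vertical axis, linear from 0), with circles for sh-NC and squares for sh-IRF1. The ratio of E2F1 to E2F3 is 1.37 and 1.29 in sh-NC against 1.83 and 1.77 in sh-IRF1, and that of E2F7 to E2F8 is 0.361 and 0.393 against 0.789 and 0.715.

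Among the pocket proteins, RB1 (ENSG00000139687; chromosome 13, 48303744 to 48599436), the retinoblastoma tumor suppressor, had 3058 and 3076 normalized counts in sh-NC and 2744 and 2871 in sh-IRF1. Its libraries were lower in sh-IRF1 without overlap, at 91.5% of control, and the change of -0.13 on the log2 scale was called (SE 0.0442, limma adjusted p = 0.0167). This call was the least secure of the 4. It was lost when libraries were scaled by total counts alone (-0.08, adjusted p = 0.126), without sh-IRF1 replicate 1 (-0.10, adjusted p = 0.199) and without sh-NC replicate 2 (-0.12, adjusted p = 0.056), all from limma. RBL1 (ENSG00000080839), which encodes p107 and is itself a known E2F target, had 1712 and 1703 normalized counts in sh-NC and 1730 and 1861 in sh-IRF1. The groups did not overlap, but the gap between the sh-IRF1 libraries was wider than that between the groups, and the log2 fold change of 0.07 was not called (95% interval -0.04 to 0.18, adjusted p = 0.309 from limma). RBL2 (ENSG00000103479), which encodes p130, the pocket protein of resting cells, had 2133 and 1955 normalized counts in sh-NC and 2240 and 2027 in sh-IRF1. Here the groups overlapped, and the log2 fold change was 0.06 (95% interval -0.05 to 0.17, adjusted p = 0.380 from limma). Other genes overlap 16.4% of the exonic bases of RBL2, and the strand setting of the counting is not stated, so its reads are less certain than those of RB1, which shares 0%.

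Among the repressing factors, 0 of 3 were called with limma, edgeR or DESeq2, and 0 had an unadjusted limma p under 0.05. Of all genes tested limma called 42.2%, and 49.0% had an unadjusted p under 0.05, so 3 genes are too few to set the class apart. E2F4 (ENSG00000205250), the E2F of quiescent and early G1 cells, had 2463 and 2365 normalized counts in sh-NC against 2300 and 2452 in sh-IRF1, so the groups overlapped. Its log2 fold change was -0.02, with a 95% interval from -0.12 to 0.07 (adjusted p = 0.733 from limma). E2F6 (ENSG00000169016), which acts with Polycomb proteins, had 472 and 443 normalized counts in sh-NC and 496 and 440 in sh-IRF1. Its log2 fold change was 0.03, with the wider interval of -0.17 to 0.24 (adjusted p = 0.824 from limma). The E2F1 estimate of 0.29 lies outside this interval, but the interval of E2F1, 0.18 to 0.40, overlaps it. A difference between E2F1 and E2F6 was not tested. E2F8 (ENSG00000129173) had 586 and 611 normalized counts in sh-NC and 643 and 650 in sh-IRF1. Both knockdown libraries lay above both controls, and the log2 fold change of 0.11 was not called (95% interval -0.06 to 0.29, adjusted p = 0.317 from limma). Groups that do not overlap are common here: 7 of the 10 family genes showed no overlap (4 above and 3 below the controls), and so did 69.2% of all genes tested (34.2% above and 35.0% below).

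TFDP1 (ENSG00000198176; chromosome 13, 113584721 to 113641473), the DNA-binding partner, had 7425 and 7480 normalized counts in sh-NC and 6451 and 6258 in sh-IRF1. Both knockdown libraries lay below both controls, at 85.3% of the control mean. Its log2 fold change of -0.23 had the smallest p of the 10 genes (SE 0.0334, limma adjusted p = 1.38e-07). The TFDP1 pseudogene in the table held 0.0614% as many reads, so it hardly touches this value.

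**Figure D3:**
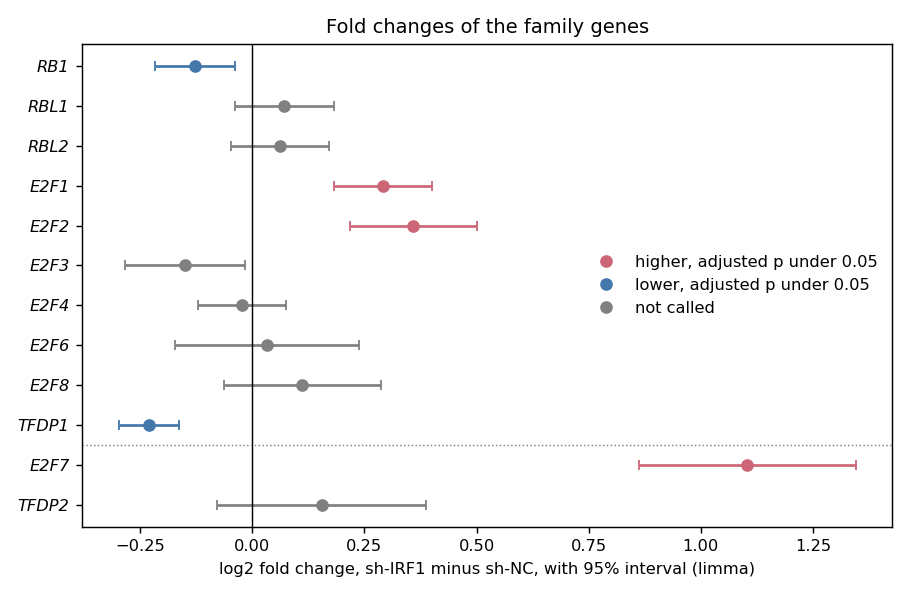
log2 fold change of each family gene, sh-IRF1 minus sh-NC, with the 95% interval from limma (horizontal axis, linear); colours mark genes called at an adjusted p under 0.05, and E2F7 and TFDP2, below the dotted line, are relatives outside the 10. The interval of E2F2 runs from 0.22 to 0.50, that of TFDP1 from -0.30 to -0.16, and that of E2F4 from -0.12 to 0.07.

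The family has further genes outside the 10. E2F7 (ENSG00000165891; chromosome 12, 77021248 to 77065569), the atypical repressor paired with E2F8, had the largest change of all E2F genes tested. It had 211 and 240 normalized counts in sh-NC and 507 and 465 in sh-IRF1, or 215% of the control mean. On the log2 scale it rose by 1.10 (SE 0.12, limma adjusted p = 1.07e-10), and so was among the 8.27% of genes higher beyond 0.5. In reads of the same library, E2F7 moved from 0.361 and 0.393 per E2F8 read to 0.789 and 0.715. TFDP2 (ENSG00000114126), which encodes the other main DP partner, had 365 and 351 normalized counts in sh-NC and 355 and 448 in sh-IRF1. The groups overlapped, and the log2 fold change of 0.15 was not called (adjusted p = 0.295 from limma). E2F5 (ENSG00000133740), a repressor related to E2F4, was barely detected, with 19 and 13 reads in sh-NC and 25 and 19 in sh-IRF1. TFDP3 had no row.

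Per length, the family spanned a wide range of levels. Divided by the exonic length in GENCODE 44, TFDP1 was the highest in every library, where its group means (± SD, n = 2) were 1991 ± 10.5 normalized counts per kilobase for sh-NC and 1697 ± 36.4 for sh-IRF1. E2F4 came next in sh-NC with 685 and 658 per kilobase, above E2F1 with 583 and 570. In sh-IRF1 this order turned, with 704 and 707 per kilobase for E2F1 and 640 and 682 for E2F4. The turn rests on the lengths used, 2.69 kilobases for E2F1 and 3.596 for E2F4, which count all annotated exons of a gene. Before division by length E2F4 stayed above E2F1 in sh-IRF1, at 2300 and 2452 normalized counts against 1894 and 1902. Which transcript forms these cells express was not tested, and orders and shares between genes depend on it. RB1, the most abundant pocket protein transcript, followed with 477 ± 2.01 per kilobase for sh-NC and 436 ± 13.9 for sh-IRF1 (SD, n = 2 each). RBL1 (287 per kilobase in sh-NC), RBL2 (252), E2F3 (225), E2F2 (154), E2F8 (145) and E2F6 (112) made up the rest of the order in sh-NC. Each of these neighbours was separated in every sh-NC library. In sh-IRF1 E2F3 (199.3 and 206.5 per kilobase) stayed above E2F2 (196.1 and 199.5) within each library, although their ranges overlapped. Summed per kilobase, E2F1 to E2F3 made up 49.4% and 50.01% of the level of all 8 E2F genes in sh-NC and 52.3% and 52.1% in sh-IRF1. The sum of the pocket proteins lay between 1005 and 1026 per kilobase in sh-NC and between 993 and 1009 in sh-IRF1, so that these ranges overlapped.

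**Figure D4:**
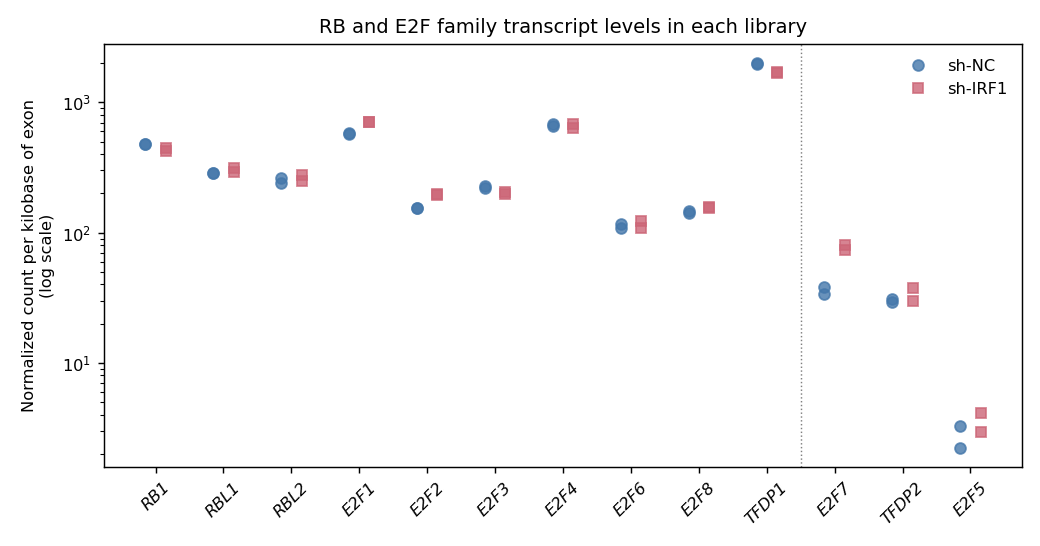
Level of each family gene in each library as normalized counts per kilobase of exon (vertical axis, log scale), with circles for sh-NC and squares for sh-IRF1; genes right of the dotted line are relatives outside the 10. TFDP1 is highest at 1991 and 1697 per kilobase (sh-NC and sh-IRF1 means), and E2F5 is lowest at 2.74 and 3.56.

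Several family genes are themselves under E2F control, so their promoters were read for the E2F site. RefSeq promoter sequences (GRCh38.p14, 250 bases before to 50 after the start) were at hand for 9 of the 10 genes, all but E2F8. The RB1 window in that set begins at base 48476200 of chromosome 13, inside the gene, and does not cover its annotated start. The RBL2 window begins at base 53434221 of chromosome 16, likewise inside the gene, whose annotated start at 53433977 it does not cover. The letters TTTCCCGC, TTTCGCGC, TTTGCCGC and TTTGGCGC were searched on both strands. A match was found in 5 of the 9 windows, those of RBL1, E2F1, E2F2, E2F3 and TFDP1, and in 3.33% of 27305 promoters of the same length. G and C made up 58.3% to 79.7% of the windows with a match and 38.3% to 63.7% of the others of the 9. The 27305 promoters were not matched for this content. The windows of RB1, RBL2, E2F4, E2F6 and, outside the 10, E2F7 held none of these letters. The 150 bases just before the RefSeq start are shown for the 5 genes (118 for TFDP1, up to where GENCODE begins the gene), since E2F1 and E2F2 rose, TFDP1 fell and the other 2 were not called although all hold a match. Capitals mark the match, read 5′ to 3′ on the strand of the gene.
E2F1 (chr20:33686386-33686535, minus strand): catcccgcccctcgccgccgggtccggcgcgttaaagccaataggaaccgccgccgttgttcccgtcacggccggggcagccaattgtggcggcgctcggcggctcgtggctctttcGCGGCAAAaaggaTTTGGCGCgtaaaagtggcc
E2F2 (chr1:23531234-23531383, minus strand): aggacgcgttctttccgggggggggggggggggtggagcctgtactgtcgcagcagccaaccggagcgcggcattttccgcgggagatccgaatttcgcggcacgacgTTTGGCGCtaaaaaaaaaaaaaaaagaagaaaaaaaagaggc
E2F3 (chr6:20401729-20401878, plus strand): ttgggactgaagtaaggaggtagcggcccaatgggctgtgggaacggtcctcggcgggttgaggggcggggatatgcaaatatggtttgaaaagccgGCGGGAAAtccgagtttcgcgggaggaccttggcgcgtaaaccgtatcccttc
TFDP1 (chr13:113584603-113584720, plus strand): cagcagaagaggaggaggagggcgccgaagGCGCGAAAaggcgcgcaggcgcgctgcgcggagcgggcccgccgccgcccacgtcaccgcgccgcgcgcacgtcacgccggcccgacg
RBL1 (chr20:37095998-37096147, minus strand): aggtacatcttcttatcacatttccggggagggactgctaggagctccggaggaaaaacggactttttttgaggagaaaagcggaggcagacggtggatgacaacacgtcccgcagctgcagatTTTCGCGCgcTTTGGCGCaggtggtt
E2F1 and RBL1 each held 2 matches and the others 1. The letters TTTGGCGC occurred in E2F1, E2F2 and RBL1, at 20, 42 and 16 bases before the start. TTTGAA, the core of the CHR element of late cell cycle genes, was present in the windows of RBL2 and E2F3 and in 15.4% of all promoters. The IRF motif (GAAA, any 2 bases, GAAA) was in 0 of the 9 windows (3.65% of all promoters), and the E-box CACGTG likewise in 0 (7.43%). A match is a description of letters and not evidence of binding.

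Upstream of the family, the 15 genes of G1 cyclins, their kinases and inhibitors were split, with 5 higher, 5 lower and a median log2 fold change of 0.03. That is 66.7% called, against 42.2% of all genes tested (20.3% higher and 21.9% lower). CCND2, which encodes cyclin D2, fell to 52.2% of control, from a mean of 780 ± 40.7 to 407 ± 1.89 (SD, n = 2 each; limma adjusted p = 5.67e-12). Among the INK4 inhibitors of CDK4 and CDK6, CDKN2C and CDKN2A rose to 124% and 126% of control and CDKN2D fell to 70.3% (adjusted p = 2.22e-08, 5.26e-08 and 1.46e-05 from limma). CCNE2, CDKN2B and CDK4 were the other genes higher and CDKN1B, CDKN1A and CCND1 the other genes lower. CCND1 had few reads, 39 and 36 in sh-NC and 13 and 27 in sh-IRF1, as had CDKN2B, with 54 and 22 against 98 and 87. The count lower was 4 with edgeR, with DESeq2 and with a filter at 50, and the count higher was 7 with total counts alone. The reads of CDK4, CCNE2, CDKN2C, CDKN2A, CCND2 and CCND1 are uncertain because 10.4% to 44.2% of their exonic sequence overlaps another gene.

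Partners of the pocket proteins were counted next. Of 8 genes of the MuvB core and the proteins that bind or act on it, 7 were tested and 3 were higher, FOXM1 (120% of control, 15.9% of exonic bases shared), MYBL2 (111%) and LIN52. These 42.9% lie at the share called among all genes, 42.2%, so the count is no result about the list. In it 0 were lower with limma, edgeR or DESeq2, and the median log2 fold change was -0.01. All 3 genes with an unadjusted limma p under 0.05 were those that rose, and DESeq2 called 2 of the 7 higher. Without sh-NC replicate 1, 1 gene was called lower. LIN37, with 54.0% of its exonic bases shared, had too few reads for the test. MYBL2 and FOXM1 encode activators of G2/M genes, and both are known E2F targets. Of 10 corepressors, 5 were lower and 0 higher with limma, edgeR and DESeq2 alike, and 5 had an unadjusted limma p under 0.05. Over all genes tested, 42.2% were called and 21.9% were called lower. The median was -0.10, and with total counts alone 4 were lower and 2 higher. HDAC2, a histone deacetylase, fell to 67.5% of control and SIN3A, its scaffold, to 80.1% of control (adjusted p = 1.15e-14 and 1.70e-07 from limma). RBBP7, ARID4A and HDAC1 were the other genes lower. Of 9 genes of turnover and dephosphorylation, 33.3% were called, below the 42.2% of all genes tested. Of these 1 was higher, SKP2 (116%), the adaptor that directs p27 to destruction, and 2 were lower, PPP1CC and PPP1CB. PPP1CC, a catalytic subunit of the phosphatase that removes phosphate from RB, had a mean of 5094 ± 86.8 in sh-NC and fell to 2019 ± 62.1 (SD, n = 2 each; limma adjusted p = 3.48e-29), while PPP1CB, with 11.9% of its exonic bases shared, stood at 82.1% of control.

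Downstream, 30 G1/S genes known as E2F targets were counted. Of these, 6 were higher and 7 lower, 43.3% in all against the 42.2% of all genes, with a median log2 fold change of -0.03. RRM2, the small subunit of ribonucleotide reductase, rose to 158% of control (limma adjusted p = 2.91e-18), and MCM7, of the replicative helicase, rose to 112% of control. MCM6, of the same helicase, fell to 74.9% and CCNA2, cyclin A2, to 79.3% (adjusted p = 3.05e-14 and 4.67e-08 from limma). The split depends on the scaling, with 10 higher and 4 lower when libraries were scaled by total counts alone, and DESeq2 called 4 lower. Of 23 late genes that the DREAM complex represses, 12 were lower and 1 higher, 56.5% in all against 42.2% of all genes tested, with a median of -0.14. TOP2A fell to 83.3% and CCNB2 to 71.6% of control (adjusted p = 9.98e-11 and 2.10e-10 from limma), and KIF2C was the gene that was higher, at 112%. Scaled by total counts alone, 9 were lower and 2 higher, and DESeq2 called 10 lower and 1 higher. The count lower fell whichever library was left out, and the count higher fell in some of these fits.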

How the data were processed

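RNA of MV4-11 cells was sequenced from 2 sh-NC and 2 sh-IRF1 libraries. The submitters' processing notes name HISAT2 2.0.5 and hg38, and the methods name FPKM and DESeq2. The counting tool, annotation and strand setting are not given in the sources used here. The authors deposited a normalized signal, the reads per gene divided by 1 size factor per library. All values (100%) were whole multiples of 1 read within 0.01, so reads were recovered, and 0 other columns were present. limma 3.58.1 in R 4.3.3 (variance trend, robust, 42.98 prior degrees of freedom) was run on log2(value + 1) over 14120 genes, those reaching 10 in 2 or more libraries. edgeR 4.0.16 and DESeq2 1.42.0 on the recovered reads, other scalings, filters, pseudocounts, a replicate block and leaving out each library were alternatives. On the recovered reads edgeR called 2910 genes higher and 3038 lower, against 2861 and 3092 with limma. Named were the 10 family genes, the other E2F and DP genes, IRF1, and the 2 genes with the smallest p per direction of each list, of which some are not reported here. Genes named as the others of a count of 5 or fewer, CD79A, ITGA2B, LIN37 and the read ratios were chosen after values were seen. The members and lists were chosen with earlier results of these data known. Symbols were found for 23456 identifiers. Positions, exonic lengths and overlaps came from GENCODE 44 on GRCh38. Replicates differed by more than sampling noise, the chi-square per gene being 2.52 (sh-NC) and 2.37 (sh-IRF1). The scripts were tested on simulated data.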

Additional observations from a re-analysis of the deposited data

How the results depend on the processing

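E2F1, E2F2, TFDP1, E2F7 and IRF1 kept their direction and an adjusted p under 0.05 in all 15 alternatives, with log2 fold changes of 0.28 to 0.34, 0.35 to 0.40, -0.25 to -0.19, 1.01 to 1.20 and -0.86 to -0.78. RB1 was called in 12 of 15, so that the count of family genes lower was 1 when scaled by total counts alone and ranged from 1 to 2 without 1 library. It stayed negative throughout, from -0.16 to -0.08. RBL1, E2F3 and E2F8 kept their sign and were called in 0 of 15. Genes near 0 changed sign without being called. E2F4 was 0.021 with total counts alone and ranged from -0.0697 to 0.0227 without 1 library, RBL2 from -0.0106 to 0.134, E2F6 from -0.0535 to 0.119 and TFDP2 from -0.0123 to 0.322. Over all lists 20 genes were higher and 39 lower, so that 33.9% of those called were higher. By list, 33.3% to 71.4% of the genes tested were called, against 42.2% of all genes tested. With total counts alone the lists had 31 higher and 31 lower. Over all genes tested the share higher among those called went from 48.1% to 56.4% with the same change of scaling. The split of the lists was not tested against that of all genes. The cause of the shift with scaling was not tested. The labels do not say whether libraries with the same replicate number shared a batch. The deviations of same-numbered libraries had a correlation of -0.0154 over 14120 genes, and a shared batch was not tested further. With a replicate block 2 family genes were higher and 2 lower, as without it, and it changed no other call of a family gene.

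With 2 libraries a group, an interval for 1 gene rests on the spread shared across genes, and at the level of E2F6 it runs from -0.17 to 0.24 on the log2 scale. For E2F5, with 13 to 25 reads a library, it runs from -0.61 to 1.34.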

Other observations

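Among 10 partners of E2F6 in its Polycomb complex, limma called 2 higher and 4 lower, while E2F6 itself was not called. Of all genes tested 42.2% were called (20.3% higher and 21.9% lower). MGA, the large scaffold that binds MAX, rose to 119% of control and RYBP to 113% (adjusted p = 0.00039 and 0.032). The count higher was 1 without a filter, with DESeq2 and without either sh-IRF1 library or sh-NC replicate 2. CBX3, a heterochromatin protein, fell to 78.7% and WDR5, a subunit shared with histone methylases, to 76.7% (adjusted p = 8.35e-10 and 1.84e-08). PCGF6 and MAX were the other genes lower. WDR5 and MAX share 11.2% and 16.1% of their exonic bases with another gene.

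Of 8 genes known as apoptotic targets of E2F1, 7 were tested, and limma called 1 higher and 4 lower. These make 71.4%, against 42.2% of all genes tested (20.3% higher and 21.9% lower). On the log2 scale the median of the 7 was -0.37. The count lower depends on the method, with 2 from DESeq2, and on single libraries. It fell without sh-NC replicate 1 and without either sh-IRF1 library. Scaled by total counts alone, 3 were lower and 2 higher. BCL2L11, which encodes the death-promoting BIM, rose to 147% of control (limma adjusted p = 2.83e-09), with 10.8% of its exonic bases shared. BBC3, which encodes PUMA, averaged 253 ± 4.12 normalized counts with the control hairpin and fell to 136 ± 16.1 (SD, n = 2 each; limma adjusted p = 6.52e-06).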
